A study of Homo sapiens with 6 samples.

Results

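The replication-dependent histone genes encode the linker histone H1 and the core histones H2A, H2B, H3 and H4 that package newly made DNA in S phase. They were taken from the count table by symbol, as the H1 genes H1f1 to H1f6 and the clustered genes named H2ac, H2bc, H3c or H4c with a number. This gave 63 of 22989 genes, with 6 of type H1, 16 of type H2A, 17 of type H2B, 12 of type H3 and 12 of type H4. The counts came from 3 libraries labelled LINC00115 KD and 3 labelled WT, here called control, all described as MDA-MB-231 PTX-resistant BCSC. MDA-MB-231 is a line from a human breast tumour that lacks hormone receptors and HER2, and PTX-resistant cells withstand paclitaxel. BCSC are breast cancer stem-like cells, sorted as positive for aldehyde dehydrogenase. In the KD libraries the lncRNA LINC00115 was targeted by short hairpin RNA. The study names the hairpin sh115-2 for this comparison, while the labels number the KD libraries sh115-1 to sh115-3, and the labels do not say whether the WT cells carry a control hairpin. It is also not stated whether replicates are separate cultures, so the p-values measure the spread between these libraries, which may be technical.

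Unlike almost all other mRNAs, replication-dependent histone mRNAs end in a conserved stem-loop in place of a poly(A) tail. The stem-loop is bound by SLBP, the stem-loop binding protein, which accompanies the mRNA from 3′ end cleavage to translation and decay. Several of these genes can also give a longer mRNA with a poly(A) tail, mainly in cells that no longer divide. In addition, cells use replication-independent variants, such as H1.0, H2A.Z and H3.3, whose mRNAs are polyadenylated in the usual way.

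The table spells its genes in mouse style although the samples are labelled human, and it lists counts for genes under mouse names such as Kap, Lyz2 and Hbb-bs. Many other genes carry the names of mouse Riken clones, so the names are those of a mouse gene set. The methods and the submitters' processing notes name human genomes instead. The values are therefore counts under mouse gene names, and are not to be read as levels of the human genes. Whether the RNA itself came from human or mouse cells could not be settled. No gene of the table is named LINC00115, so the knockdown itself could not be checked and each direction rests on the labels. Counts totalled between 36979221 and 38799331 per library, and the chi-square per degree of freedom between library pairs was at most 7.60 within a group and at least 206 between groups. Of 10 genes listed for a mesenchymal breast cancer line, such as Vim and Cd44, all 10 passed the filter on low counts. None passed a fold change of 2. At an adjusted p under 0.05 (edgeR), 5 were higher and 3 lower, beside 36.7% of all genes tested each way. Krt8 (log2 fold change 0.67) and Krt18 (0.87) were among the higher and Fn1 (−0.45) among the lower. Zeb1 had only 23 to 64 counts in a library. The 10 genes summed to 9256 to 9476 normalized CPM in the control libraries and 9309 to 9411 in the KD libraries. For each list of markers of another cell type, the summed levels of the KD libraries all exceeded those of the controls, but not every gene did so. The 15 lung genes summed to 1.78 to 2.25 normalized CPM in the controls and 79.6 to 91.0 in the KD libraries, and 8 of them, among them Scgb1a1 and Sftpc, had 0 counts in every control library. The 15 kidney genes summed to 16.8 to 19.6 against 42.3 to 46.2, and 6 erythroid genes to 0 to 0.159 against 1.66 to 2.35. The kidney gene Cubn was lower in the KD libraries (log2 fold change −0.45, adjusted p = 0.00372, edgeR). The 12 leukocyte genes summed to 72.1 to 86.0 against 144 to 160, of which S100a8 alone had a mean of 33.0 and 95.2. Csf1r, with at most 3 counts in a library, was lower, and Ptprc, Itgam, Cd68 and Cd79a overlapped between the groups. Cd3e, a defining T cell gene, had 0 counts in all libraries. The part of these cells in the histone results below was not tested. In bulk RNA, fewer cells of a type and less RNA per cell cannot be told apart.

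The stem-loop is shown first because it is the feature that sets these mRNAs apart. Since the table gives no positions, it was read from the human genes of the same name in the GENCODE annotation of GRCh37, the build that the methods name as hg19. These are human namesakes of genes counted under mouse names, and need not be the sequences that the reads came from. Of the 63 histone genes, 49 matched a human gene by name, 40 on chromosome 6 and 9 on chromosome 1. All 49 namesakes held a histone stem-loop after the stop codon. Among all 19807 protein-coding genes searched, 80 held one (0.404%), namely these 49 and 31 others. For the genes with the most counts, and for others described below, the 16 letters of the stem-loop are in capitals with up to 5 transcript bases on each side.
H1-2: caaaaGGCTCTTTTCAGAGCCacca
H1-3: taaacGGCTCTTTTCAGAGCCaccca
H1-4: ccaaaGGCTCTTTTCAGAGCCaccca
H2BC4: ccaaaGGCTCTTTTAAGAGCCaccca
H2BC21: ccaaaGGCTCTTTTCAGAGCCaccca
H2BC6: ccaaaGGCTCTTTTCAGAGCCactca
H2BC18: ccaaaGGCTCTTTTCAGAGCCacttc
H2AC13: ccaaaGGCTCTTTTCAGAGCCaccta
H3C3: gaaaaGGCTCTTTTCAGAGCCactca
H4C9: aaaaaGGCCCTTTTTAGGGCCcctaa

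The form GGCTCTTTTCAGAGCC was present in 30 of the 49 namesakes, with 4 of type H1, 7 of H2A, 9 of H2B, 10 of H3 and none of H4. All 8 namesakes of type H4 had a stem of GGCCC paired with GGGCC instead. The stem-loop of H1-2 lies at chr6:26055972-26055987 on the minus strand, in the 3′ UTR of a gene annotated from 26055968 to 26056698 with 1 transcript, which ends 4 bases past it. The stem-loop of H2BC4 lies at chr6:26123700-26123715 and that of H2BC21 at chr1:149857738-149857753, both on the minus strand. That of H4C9 is at chr6:27107433-27107448 on the plus strand. Unlike H1-2, H2BC21 has an annotated transcript that runs on for 1729 bases past the stem-loop, and H2BC4 one whose end lies 8599 bases past it in the genome. Such a coding transcript, ending over 100 bases past the stem-loop, was annotated for 9 of the 49 namesakes, the others being H2BC6, H2BC11, H2BC15, H2BC18, H2AC6, H3C6 and H3C10.

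Few reads fell on these genes. The labels and the methods name different library kits, both for mRNA or RNA, and whether poly(A) RNA was selected is not stated. Such a selection captures mRNAs that end in the stem-loop poorly, so the counts need not follow the whole amount of histone mRNA. All 63 together had 731 to 754 counts in the control libraries and 1018 to 1213 in the KD libraries, or 19.4 to 31.3 CPM. In every library, H1f2, H2bc4 and H2bc21 held between 55.1% and 67.3% of them. Only these 3 genes reached 100 counts in a library, 32 stayed under 10 counts in every library, and the median total over the 6 libraries was 23 counts. H2bc1, which encodes a testis H2B, had 0 counts in every library, and a count of 0 allows up to 3 counts, for counting error only. H1f6, the testis H1, had 7 counts in KD replicate 2 and 0 elsewhere. Many of the genes are near-identical in their coding sequence, so reads can be split between copies or dropped, and the treatment of such reads is not stated. The values of single genes with few counts are uncertain for this reason.

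**Figure D1:**
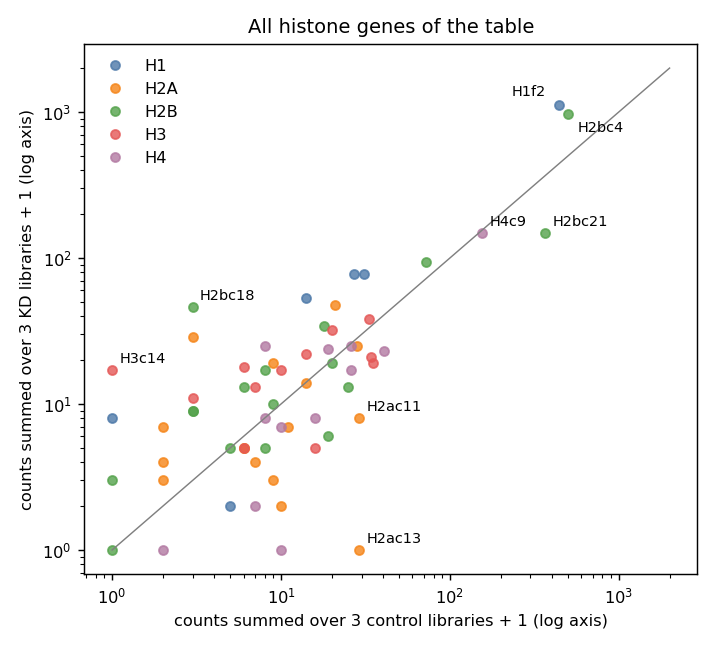
Counts of each of the 63 histone genes, summed over the 3 control libraries (x axis) and the 3 KD libraries (y axis), with 1 added and both axes on a log scale. Points are coloured by histone type and the line marks equal sums; H1f2 and H2bc4 lie above it at 440 and 501 control counts, H2bc21 lies below it, and most genes lie under 100 counts.

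Of the 63 genes, 9 had enough counts to be tested in the model of all 13497 genes (edgeR's quasi-likelihood test). A gene was called at an adjusted p under 0.05 and a fold change over 2. Of the 9 genes, H1f2, H1f3 and H1f4 were called higher in the KD libraries, where 10.2% of all genes tested were called higher, and H2bc21 was called lower, where 9.98% were called lower. By adjusted p alone, 4 were higher and 1 was lower, against 36.7% of all genes each way. The filter on low counts lets a gene through when 1 group is high, as it did for H1f3 and H1f4, so the 9 genes do not stand for the 63.

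**Figure D2:**
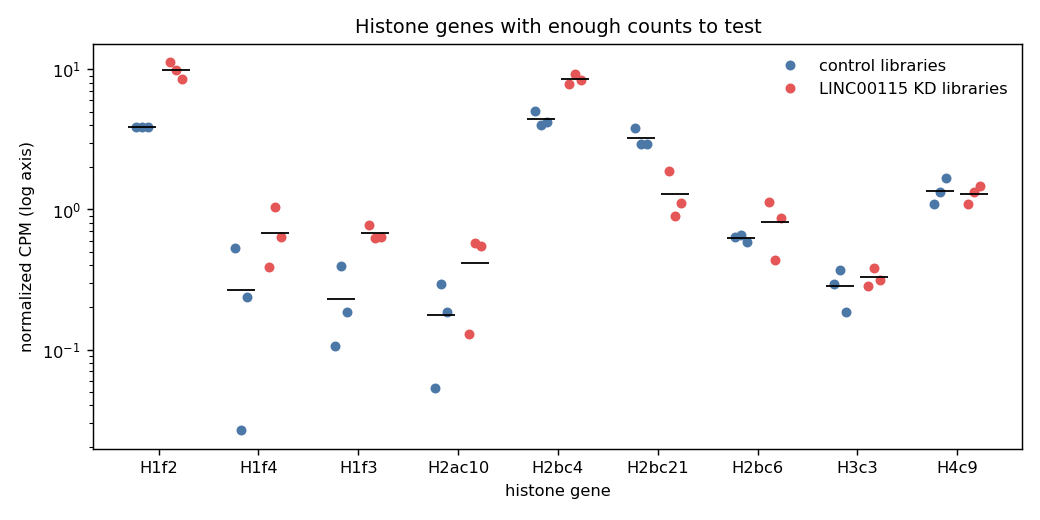
Normalized CPM (log axis) of the 9 tested histone genes in each of 3 control libraries (blue) and 3 LINC00115 KD libraries (red), with a bar at each group mean. The groups are apart for H1f2, H1f3, H2bc4 and H2bc21 and overlap for the other genes; H1f2 sits at 3.86 to 3.90 in the controls and 8.50 to 11.2 in the KD libraries.

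H1f2 encodes histone H1.2, a main linker histone of dividing cells. It had 147, 147 and 146 counts in the control libraries and 434, 361 and 323 in the KD libraries. Every KD library lay above every control library. The level was 3.89 ± 0.0200 normalized CPM in the controls and 9.85 ± 1.36 in the KD libraries (SD, n = 3 each), and it rose 2.53-fold (log2 fold change 1.34, standard error 0.15, adjusted p = 5.69e-10, edgeR).

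The other H1 genes had far fewer counts. H1f3 had 4, 15 and 7 counts in the controls and 30, 23 and 24 in the KD libraries, without overlap (log2 fold change 1.55, standard error 0.56, adjusted p = 0.013, edgeR). The call was lost without control replicate 1 (adjusted p = 0.0932, edgeR) and without control replicate 3 (adjusted p = 0.0633). H1f4 had 20, 1 and 9 counts against 15, 38 and 24, so that the groups overlapped (log2 fold change 1.36, standard error 0.61, adjusted p = 0.0453, edgeR). Its call was lost in 8 of 12 alternative fits, among them library totals in place of TMM scaling (adjusted p = 0.0501, edgeR) and DESeq2 (adjusted p = 0.0693), and without KD replicate 2 the log2 fold change was 0.94. H1f5 was not tested, with 3, 4 and 6 counts in the controls and 36, 14 and 2 in the KD libraries, and H1f1 had at most 4 counts in a library. Summed over the 6 H1 genes, the level was 4.53 ± 0.0862 normalized CPM in the controls and 11.7 ± 1.78 in the KD libraries (SD, n = 3), and it was 0.645 ± 0.0677 and 1.89 ± 0.500 without H1f2.

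The replication-independent linker histone went the other way. H1f0, which encodes H1.0, a linker histone that accumulates in cells that have stopped dividing, had 26517, 28445 and 29349 counts in the controls and 18230, 16731 and 18041 in the KD libraries. It fell, without overlap, from 745 ± 37.2 to 467 ± 10.2 normalized CPM (SD, n = 3), by 0.67 on the log2 scale (standard error 0.03, adjusted p = 1.14e-18, edgeR). The ratio of H1f2 to H1f0 counts within a library, which no scaling of libraries can alter, was 0.00554, 0.00517 and 0.00497 in the controls and 0.0238, 0.0216 and 0.0179 in the KD libraries. This ratio was not planned and is given as a description. Whether both mRNAs were captured alike in all libraries was not tested.

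Among the H2B genes, which encode the partner of H2A in the nucleosome, the most counted pair moved apart. H2bc4 had 190, 151 and 160 counts in the control libraries and 304, 343 and 320 in the KD libraries. It was higher in every KD library, at 8.54 ± 0.749 against 4.43 ± 0.547 normalized CPM (SD, n = 3), and rose 1.93-fold (log2 fold change 0.95, standard error 0.15, adjusted p = 9.17e-07, edgeR), just under the fold threshold. It passed that threshold without control replicate 1 (log2 fold change 1.05) and without KD replicate 1 (1.01). H2bc21 had 144, 110 and 111 counts in the controls and 73, 33 and 42 in the KD libraries. Every KD library was below every control library, and the level fell from 3.22 ± 0.518 to 1.30 ± 0.521 normalized CPM (SD, n = 3), 2.48-fold lower (log2 fold change −1.31, standard error 0.28, adjusted p = 0.000118, edgeR). The ratio of H2bc4 to H2bc21 counts was 1.32, 1.37 and 1.44 in the controls and 4.16, 10.4 and 7.62 in the KD libraries. It was chosen after the values were seen and is given as a description. Both namesakes are annotated with a transcript that ends past the stem-loop, as given above, and so is that of H2bc6. The part of such transcripts in these results was not tested.

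H2bc6 had 24, 25 and 22 counts in the controls and 44, 16 and 33 in the KD libraries, and the groups overlapped (log2 fold change 0.38, standard error 0.46, adjusted p = 0.469, edgeR). H2bc18 had 1, 0 and 1 counts against 8, 25 and 12, and was too low for the test. With no filter on low counts its log2 fold change was 4.27 (adjusted p = 0.000389, edgeR), a value that rests on 2 control counts. H2bc8 had 3, 8 and 6 counts in the controls and 13, 10 and 10 in the KD libraries. Since the H2B genes moved in both directions, their sum differed less than H1f2 or H2bc21 did, at 9.29 ± 1.21 normalized CPM in the controls and 12.2 ± 0.157 in the KD libraries (SD, n = 3), although the groups did not overlap.

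**Figure D3:**
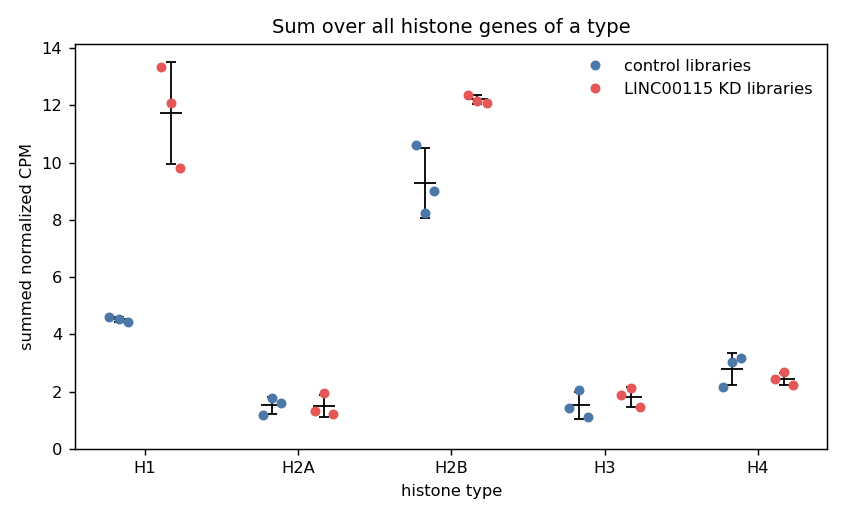
Summed normalized CPM of all genes of each histone type in each of 3 control libraries (blue) and 3 LINC00115 KD libraries (red), with the group mean and SD in black. The H1 sum is 4.45 to 4.62 in the controls and 9.82 to 13.3 in the KD libraries; the H2B sums also stand apart, and the H2A, H3 and H4 sums overlap.

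The H2A genes, whose products form a dimer with H2B, had no call. Their 16 genes summed to 45, 67 and 60 counts in the controls and 51, 71 and 46 in the KD libraries, or 1.52 ± 0.296 and 1.49 ± 0.390 normalized CPM (SD, n = 3). The groups overlapped. H2ac10, the only H2A gene tested, had 2, 11 and 7 counts against 5, 21 and 21 (log2 fold change 1.22, standard error 0.67, adjusted p = 0.0981, edgeR). It was called higher without KD replicate 1 (log2 fold change 1.66, adjusted p = 0.0346, edgeR).

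Counts are given for 4 H2A genes that were too low for the test. H2ac13 had 6, 12 and 10 counts in the controls and 0 in each KD library. With 0 counts set to the limit of 3 counts over the group, the KD libraries were 9.33-fold lower. That value allows for counting error of the 0 counts only and is no lower bound. H2ac11 had 7, 11 and 10 counts against 2, 2 and 3. H2ac18 had 0, 2 and 0 counts against 20, 6 and 2, so that the groups overlapped. With no filter on low counts the adjusted p was 0.000754 for H2ac13, 0.127 for H2ac11 and 0.0143 for H2ac18 (edgeR). H2ac8 had 13, 6 and 8 counts against 6, 13 and 5, and the remaining H2A genes had at most 10 counts in a library.

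The H3 genes encode the core histone whose tail carries many of the known methylation and acetylation marks. Their 12 genes summed to 54, 77 and 42 counts in the controls and 73, 78 and 55 in the KD libraries, or 1.53 ± 0.471 and 1.82 ± 0.343 normalized CPM (SD, n = 3), and the groups overlapped. H3c3 was tested, with 11, 14 and 7 counts against 11, 14 and 12 (log2 fold change 0.21, standard error 0.58, adjusted p = 0.758, edgeR). H3c8 had 7, 19 and 7 counts against 4, 14 and 2, H3c6 had 12, 16 and 6 against 5, 6 and 7, and H3c7 had 3, 3 and 7 against 14, 0 and 7. None of these kept the groups apart. H3c10 did, with 5, 8 and 6 counts in the controls and 10, 12 and 9 in the KD libraries. H3c14 had 0 counts in every control library and 0, 12 and 4 in the KD libraries.

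H4 is the core histone that pairs with H3. Its 12 genes summed to 81, 115 and 120 counts in the controls and 94, 98 and 85 in the KD libraries, or 2.79 ± 0.559 and 2.45 ± 0.216 normalized CPM (SD, n = 3), and the groups overlapped. H4c9 had 41, 50 and 63 counts in the controls and 42, 49 and 56 in the KD libraries. The log2 fold change was −0.07 with a standard error of 0.35 (adjusted p = 0.869, edgeR). H4c12 had 5, 26 and 9 counts against 11, 7 and 4, H4c11 had 3, 2 and 20 against 7, 8 and 1, and H4c4 had 4, 13 and 8 against 15, 1 and 8. In these genes 1 library differed from the others of its group by more than the groups differed. H4c8 had 8, 5 and 5 counts against 10, 7 and 6. Most H2A, H3 and H4 genes had too few counts to pass the filter. With no filter, H3c14 joined H2ac13 and H2ac18 at an adjusted p under 0.05 (0.0121, edgeR).

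Over all 63 histone genes the sum was 19.7 ± 0.335 normalized CPM in the controls and 29.7 ± 2.52 in the KD libraries (SD, n = 3), 1.51-fold higher and without overlap. Without H1f2, H2bc4 and H2bc21, left out after their values were seen, the remaining 60 genes had 8.13 ± 0.803 and 10.01 ± 1.10 normalized CPM, 1.23-fold, and the groups overlapped. Of the 9 tested histone genes, 3 lay above every control library in all KD libraries and 1 lay below, where 37.8% of all genes tested did so in each direction. Of the 54 not tested, 4 lay above and 2 below, and the share among all untested genes of the table was not counted. For the 38 histone genes with a mean of 2 to 20 counts, the median ratio of variance to mean within groups was 2.55, and it was 2.75 for the 4084 genes of the table in that range.

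**Figure D4:**
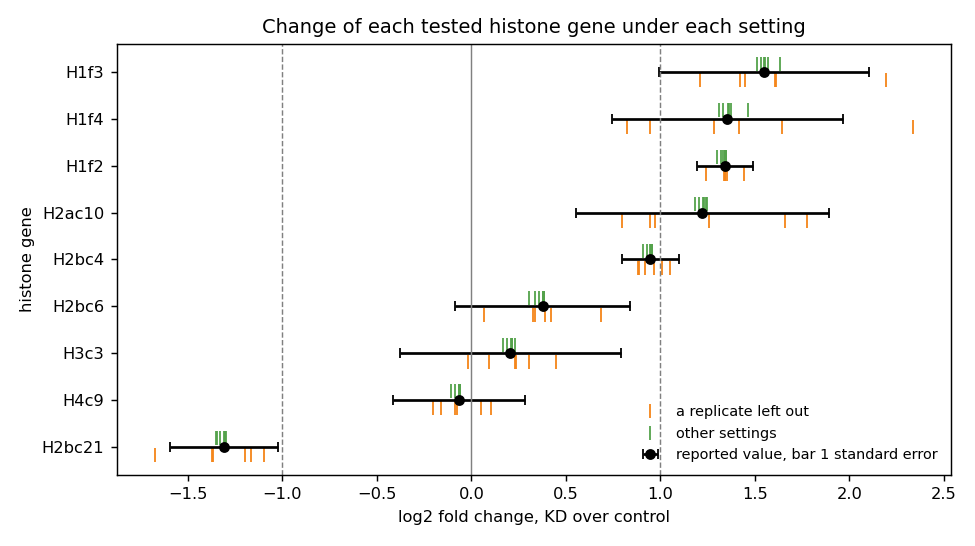
Log2 fold change (KD over control, x axis) of the 9 tested histone genes, with 1 standard error as the bar. Orange ticks are fits with a replicate left out, green ticks are other scalings, filters, the replicate block and DESeq2, and dashed lines mark a fold change of 2; H1f2 and H2bc21 stay outside the dashed lines in every fit, while H1f4 moves between 0.83 and 2.34.

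Next, the genes that make and process histone mRNA were examined in the same fit. Of 26 listed, 24 were in the table and tested, of which 14 fell and 6 rose at an adjusted p under 0.05, with a median log2 fold change of −0.23. Among all genes tested the median was −0.01, and 36.7% fell and 36.7% rose. Slbp fell from 139 ± 3.85 to 92.9 ± 2.54 normalized CPM (SD, n = 3), with 5113, 5219 and 5414 counts in the controls and 3641, 3305 and 3595 in the KD libraries (log2 fold change −0.58, standard error 0.04, adjusted p = 1.68e-14, edgeR). Npat, the cyclin E–Cdk2 substrate that switches on histone transcription, fell by 0.41 on the log2 scale (adjusted p = 2.20e-08, edgeR). Casp8ap2, also called FLASH, a factor of the histone locus body and of 3′ end cleavage, fell by 0.29 (adjusted p = 1.09e-05, edgeR). None of these 3 genes passed a fold change of 2.

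The U7 snRNP, which guides cleavage behind the stem-loop, has 2 Sm-like proteins of its own, and they moved in opposite directions. Lsm10 fell from 20.5 ± 0.795 to 12.4 ± 0.279 normalized CPM and Lsm11 rose from 23.4 ± 0.352 to 34.6 ± 2.85 (SD, n = 3), with log2 fold changes of −0.72 and 0.56 (adjusted p = 7.30e-09 and 1.63e-08, edgeR). The gene called at both thresholds was Zfp473, which encodes a zinc finger protein of this complex. It had 109, 95 and 84 counts in the controls and 33, 20 and 30 in the KD libraries, and fell by 1.80 on the log2 scale (standard error 0.33, adjusted p = 1.17e-05, edgeR). Upf1, a helicase used in histone mRNA decay, and Coil, which encodes coilin, rose by 0.91 and 0.97 on the log2 scale.

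Of 24 histone chaperones, which hand histones to DNA, 15 fell and 7 rose at an adjusted p under 0.05, beside the 36.7% of all genes each way, and none passed a fold change of 2. Chaf1a, the large subunit of the replication-coupled chaperone CAF-1, fell (log2 fold change −0.88), and Hira, which deposits H3.3 outside replication, rose (0.80). Of 9 replication-independent variants tested, 5 fell and 2 rose, beside the same 36.7% each way, and again none passed a fold change of 2. Besides H1f0, these were H2az2 (−0.73), H2aj (−0.68), H3f3a (−0.49) and Cenpa (−0.35), the centromeric H3, which fell, and Macroh2a1 (0.31) and H3f3b (0.26), which rose. H2az1 (−0.03, adjusted p = 0.371, edgeR) and H3f3c (−0.215, adjusted p = 0.747) did not pass. H2az1 had mean levels of 342.5 normalized CPM in the controls and 334.6 in the KD libraries, and H2az2 had 76.8 and 46.3. H3f3a and H3f3b encode the same H3.3 protein. H3f3a had means of 230 and 164 normalized CPM, and H3f3b 887 and 1063.

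Histone mRNA is normally tied to S phase, so genes of the cell cycle were set beside it. Of 31 S phase genes, 23 were lower and 6 higher at an adjusted p under 0.05, beside 36.7% of all genes tested each way. Their median log2 fold change was −0.27. The only one past a fold change of 2 was Rrm2, a subunit of ribonucleotide reductase, which was higher (1.27). Of 20 G2 and mitosis genes, 19 were lower and 1 higher, beside the same 36.7% each way. Their median was −0.47, and Bub1 (−1.34) and Ndc80 (−1.14) passed a fold change of 2. H1f2 and H2bc4 were higher and H2bc21 lower in libraries where most of these genes were lower, and whether the cell cycle has a part in the histone results was not tested. Of 19 listed RNAs that lack a poly(A) tail, 3 were found, of which Malat1 and Neat1 were tested. Both fell at an adjusted p under 0.05, by 0.74 and 0.28 on the log2 scale, and Vaultrc5 was too low to test. Neat1 also has a short polyadenylated form. The part of poly(A) capture in the histone results was not tested.

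**Figure D5:**
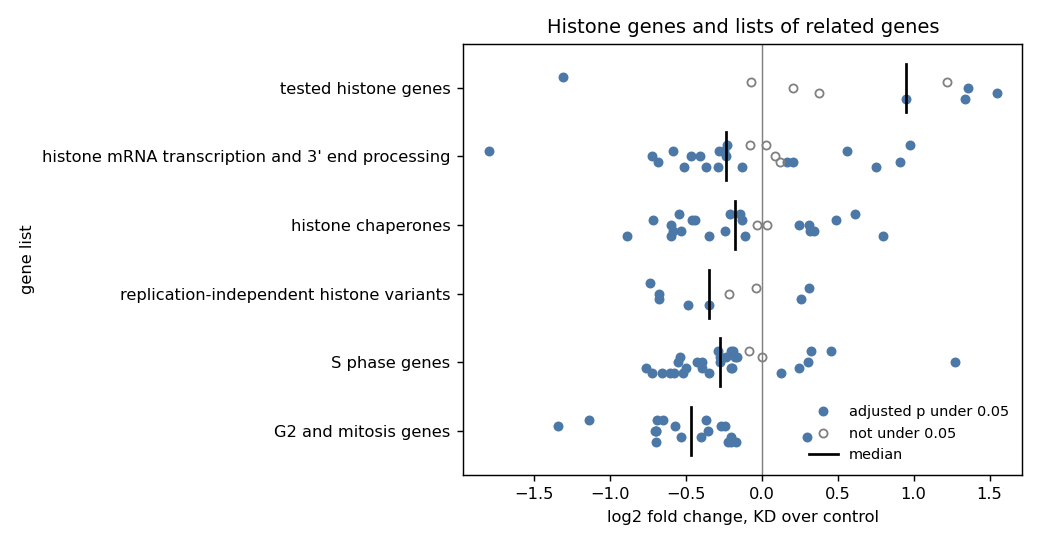
Log2 fold change (KD over control, x axis) of each tested gene in the histone group and in 5 lists of related genes, with filled points at an adjusted p under 0.05, open points otherwise and a black line at the median. The medians of the 5 lists lie between −0.47 and −0.18; the 9 histone genes spread from −1.31 to 1.55.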

How the data were processed

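RNA was sequenced in 3 LINC00115 KD and 3 control libraries. The authors trimmed adapters, mapped reads with HISAT2 and deposited whole-number counts per gene without normalization. The methods name hg19, while the submitters' processing notes name hg38, featureCounts and DESeq2. The annotation, the strand setting and the handling of reads with several matches are not given in the sources used here. Library totals were 36979221 to 38799331 counts, and 0 columns went unused.

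Differences were assessed with edgeR 4.0.16 under R 4.3.3, using filterByExpr (minimum count 10, minimum total 15), TMM, the quasi-likelihood test and Benjamini-Hochberg adjustment over 13497 genes, with the methods' thresholds of an adjusted p under 0.05 and a fold change over 2. Standard errors are the log2 fold change over the root of F. Normalized CPM use TMM-scaled totals, and sums by type have no test. The test was run on simulated counts in which only genes past the filter were changed, with the same variation set for every gene. That run does not show how the test performs for histone genes with few counts. Alternatives were other scalings, filters, left-out replicates, a replicate block, DESeq2 1.42.0 and a test against a fold change of 1.5. Stem-loops were searched after the stop codon in GENCODE transcripts.

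The histone genes and all lists were chosen with earlier results of these data known. Genes named were the called histone genes, the 5 of each type with the highest mean, Slbp, Npat, Casp8ap2, Lsm10, Lsm11, called genes of the processing, chaperone and variant lists, and testis histone genes. Others named were chosen after their values were seen. A list of polyadenylated histone genes used older symbols that matched none here and was not used.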

Additional observations from a re-analysis of the deposited data

How the results depend on the processing

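H1f2 stayed called higher and H2bc21 called lower in every alternative, with log2 fold changes of 1.24 to 1.44 and −1.67 to −1.09. The share of all genes called was counted for the reported fit only, so the counts below have no such share beside them. With no low-count filter, 62 histone genes were tested, with 6 called higher and 2 lower, 7 and 2 by adjusted p alone, and a median log2 fold change of 0.0803, against 0.95 for the 9 genes of the reported fit. With at least 10 counts in every library, 5 were tested, with 1 called higher, 2 higher by adjusted p alone and a median of 0.38. Both filters change which histone genes are tested, and why the counts moved was not tested. The number called higher was 2, in place of 3, with upper quartile scaling, library totals or DESeq2. In a test against a fold change of 1.5, with no further fold threshold, 2 passed as higher, of which H1f2 alone was past a fold change of 2, so that the calls of H1f3 and H1f4 were lost. With each replicate left out, 14 to 18 genes were tested, since the filter then asks for fewer libraries, and 2 to 6 were called higher, 3 to 6 higher by adjusted p alone and 1 to 3 lower, both with and without the fold threshold, with a median of 0.23 to 0.83. The 6 higher genes came without KD replicate 1, the 3 lower genes without control replicate 1, which added H2ac11 and H2ac13, and 2 lower genes without KD replicate 2. With the replicate number as a block, 3 were called higher and 1 lower, with a median of 0.95, and no call changed; same-numbered libraries did not deviate together (correlations −0.0178 to 0.0041), and not every library correlated best with its own number. H3c3 ranged from −0.018 to 0.45 with a replicate left out and changed sign without control replicate 3. H4c9 ranged from −0.20 to 0.11 and changed sign without control replicate 3 (0.11) and without KD replicate 1 (0.05), none past the threshold, and the cause was not tested. The list counts stayed within 1.5 times in all 130 comparisons, which were added after the data were seen. The 54 genes not tested had at most 36 counts in a library, and 5 of them (H1f5, H2ac13, H2ac18, H2bc18 and H3c14) were called with no filter.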
